A study of Mus musculus with 2 samples.

Results

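Chemokines are small secreted or membrane-held proteins that guide leukocytes along concentration gradients, and their receptors are seven-helix proteins on the cells they guide. They were followed here in the mouse lung at postnatal day 10. Every entry of the deposited gene table was taken whose symbol starts with Ccl, Cxcl, Cx3cl, Xcl, Ccr, Cxcr, Cx3cr, Xcr or Ackr followed by a number, without the Ccrl and Ccrn genes. This gave 67 entries with 61 different symbols among 27998 genes: 44 entries for ligands and 23 for receptors. The entries were taken by symbol alone, but the family was chosen with earlier results of these data known. Of the 67 entries, 12 had no UMI (unique molecular identifier, 1 counted RNA molecule) in any barcode, 13 had fewer than 20 UMIs in the cells used, and 42 had at least 20, of which 28 were ligands and 14 were receptors.

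The series holds 2 single-cell libraries made with droplet 3′ tag chemistry from flow-sorted lung cells of 4 kinds (epithelial, endothelial, mesenchymal and immune). The control library has the genotype label "control" and a title that names Nkx2-1. The mutant library has the genotype label "mutant" and a title that names Nkx2-1 with Aqp5. The labels do not say which allele or driver was used, how many animals were pooled, or whether the control carries any of the alleles. As background, NKX2-1 is the homeobox transcription factor that specifies lung epithelium, and Aqp5 codes for an aquaporin found in the thin alveolar type 1 (AT1) cells across which gas is exchanged.

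In the lung, chemokines are made by epithelium, stroma and macrophages and are held on endothelium. Inflammatory ligands such as Cxcl1, Cxcl2 and Ccl20 are transcribed quickly after NF-kB signalling and draw in neutrophils, dendritic cells and lymphocytes. Homeostatic ligands such as Cxcl12 are made without a stimulus and place progenitors, vessels and lymphocytes. Atypical receptors (the Ackr genes) bind chemokines without coupling to G proteins and clear or store them.

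The control library held 4461 barcodes and 29862980 UMIs, and the mutant library 4551 barcodes and 47271104 UMIs, with medians of 5943 and 8305 UMIs per barcode. After filters, 3954 control and 4186 mutant cells were used, and 18 cell barcodes of these occurred in both libraries. The gene named in both titles, Nkx2-1, was at 482 CPM (a gene's UMIs per 1000000 UMIs of the class) in the AT1 compartment of the control (95% interval 460 to 505) and at 13.8 (12.5 to 15.2) in that of the mutant. In AT2-like cells it was at 351 and 309. A 3′ tag checks a deletion only where it lies in the deleted part, and the labels do not name that part. With 1 library per genotype no difference has a replicate check. Each level below carries an exact Poisson 95% interval where 1 is printed, and each ratio an exact conditional binomial one. Both cover counting error only, and no test was made.

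The cells fell into 6 classes. The AT1 compartment, which is every epithelial cluster not named as another type, held 540 control and 2228 mutant cells. Different clusters held most of it in the 2 libraries. In the control, 517 cells lay in an AT1-like cluster led by Aqp1, Rtkn2 and Igfbp2. In the mutant, 168 cells lay in an AT1-like cluster led by Krtap17-1 and Clic5, and 2054 lay in clusters that took no name, led by Tff1 and Tff2 (675 cells), Sprr1a and Sema3c (398), Kcne2 and Sfn (391), Gpx2 (328) and cell-cycle genes (262). The other classes held 1269 control and 215 mutant AT2-like cells (the surfactant-making alveolar cells), 135 and 66 airway cells, 590 and 483 endothelial cells, 1094 and 1023 mesenchymal cells, and 326 and 171 immune cells. The sort sets these numbers in part, so they are given only as the cells behind each value.

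The share of the leading ligand differed widely between classes. Cxcl15 (lungkine, an epithelial CXC ligand) made up 97.1% of all chemokine ligand UMIs in control AT2-like cells and 97.5% in mutant ones. Cxcl16, a membrane-bound ligand for Cxcr6, led the AT1 compartment with 73.9% in the control and 36.4% in the mutant. Cxcl12, the ligand of Cxcr4, led endothelial cells with 66.5% and 82%. Ccl6, a macrophage ligand, led immune cells with 43.6% and 58.4%. Cxcl15 led airway cells with 48.3% and 55.2%, and Cxcl12 led mesenchymal cells with only 21.3% and 34.3%. Among receptors with at least 20 UMIs, 11 of 14 were highest in immune cells in both libraries, and the other 3 (Ackr2, Ackr3 and Ackr4) were highest in endothelial cells in both.

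**Figure D1:**
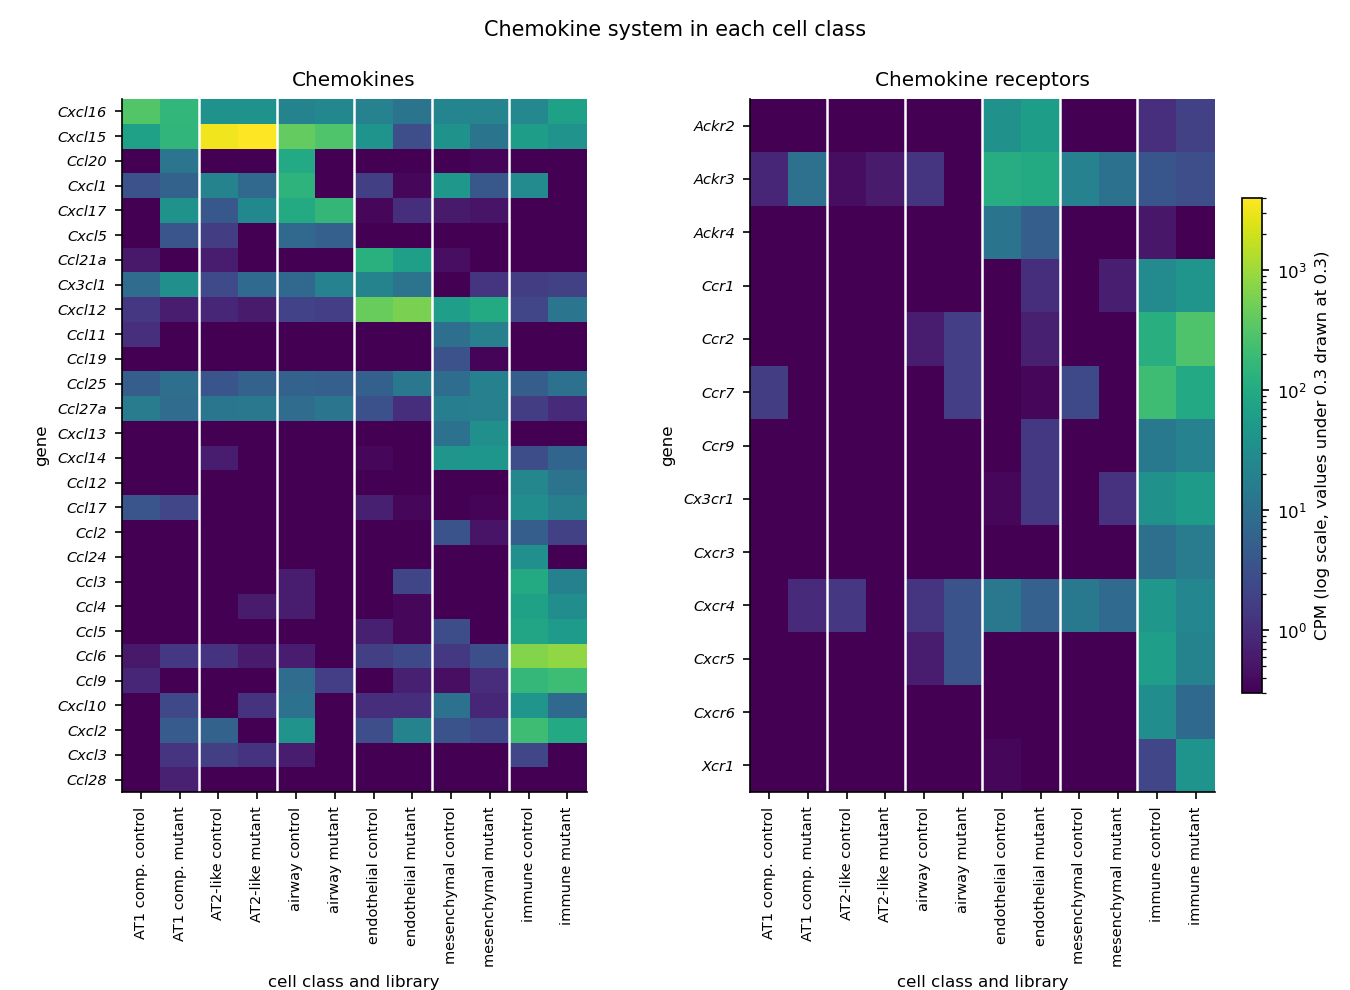
Level of the 28 ligands and 13 of the 14 receptors with at least 20 UMIs (rows) in each cell class and library (columns), as CPM on a logarithmic colour scale with values under 0.3 drawn at 0.3. Cxcl15 in AT2-like cells, at 3205 CPM in the control and 4029 in the mutant, is the highest value drawn, and the receptors other than the 3 atypical ones are brightest in the immune columns.

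Promoter sequences are printed for 4 ligands: Cxcl1, Cxcl2 and Ccl20, which were absent together from the mutant's airway cells, and Cxcl15, the main ligand of the epithelium. Each window runs from 250 bases before to 50 after the RefSeq start (GRCm38.p6), 5′ to 3′ on the gene's strand. Capitals mark matches, on either strand, to a short NF-kB motif (GGGNNTTTC) in the first 3 and to the NKX2-1 core motif (CTCAAG) in Cxcl15. The windows are chr5:90890995-90891294 (+) for Cxcl1, chr5:90903649-90903948 (+) for Cxcl2, chr1:83116516-83116815 (+) for Ccl20 and chr5:90794284-90794583 (+) for Cxcl15.
Cxcl1: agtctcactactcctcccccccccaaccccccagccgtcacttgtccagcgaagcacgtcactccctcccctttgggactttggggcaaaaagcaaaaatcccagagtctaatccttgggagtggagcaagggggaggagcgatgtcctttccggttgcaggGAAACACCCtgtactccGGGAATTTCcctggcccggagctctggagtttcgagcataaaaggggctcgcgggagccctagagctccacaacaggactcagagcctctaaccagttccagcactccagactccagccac
Cxcl2: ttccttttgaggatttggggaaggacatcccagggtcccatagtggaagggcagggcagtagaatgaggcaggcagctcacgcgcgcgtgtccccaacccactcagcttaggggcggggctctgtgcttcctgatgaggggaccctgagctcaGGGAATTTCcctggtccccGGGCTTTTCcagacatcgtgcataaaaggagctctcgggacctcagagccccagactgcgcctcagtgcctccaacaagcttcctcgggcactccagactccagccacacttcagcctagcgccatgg
Ccl20: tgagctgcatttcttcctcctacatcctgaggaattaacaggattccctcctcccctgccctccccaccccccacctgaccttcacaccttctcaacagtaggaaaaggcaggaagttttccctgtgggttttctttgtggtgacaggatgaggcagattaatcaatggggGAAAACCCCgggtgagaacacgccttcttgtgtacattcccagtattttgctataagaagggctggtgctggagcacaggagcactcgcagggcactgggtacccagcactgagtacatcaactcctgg
Cxcl15: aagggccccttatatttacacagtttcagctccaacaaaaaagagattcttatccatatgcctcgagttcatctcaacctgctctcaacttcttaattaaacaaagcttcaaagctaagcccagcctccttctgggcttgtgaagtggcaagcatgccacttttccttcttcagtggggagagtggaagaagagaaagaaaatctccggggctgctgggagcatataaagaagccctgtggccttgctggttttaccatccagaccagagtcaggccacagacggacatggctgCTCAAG
Cxcl1 and Cxcl2 each held 2 matches to the NF-kB motif, beginning 88 and 71 bases before the start in Cxcl1 and 97 and 78 before it in Cxcl2. Ccl20 held 1, at 79 before. The letters GGGNNTTTC occurred in 4.36% of 32851 promoter windows of this length and in 12 of the 46 family members with a window (26.1%), among them also Cxcl3, Cxcl9, Ccl9 and Cxcr2. The NKX2-1 core occurred in 15.9% of windows and in 7 of the 46 (15.2%), among them Cxcl15, where it starts 44 bases after the start. An interferon response core (GAAANNGAA) occurred in 8.56% of windows and in 8 of the 46 (17.4%), among them Cxcl9, Cxcl10, Ccl3 and Ccr2. An AP-1 motif (TGANTCA) occurred in 7.81% of windows and in 9 of the 46 (19.6%), Cxcl10 among them. The shares of all windows count windows, while those of the family count genes with a match in any of their windows, so the units differ. A match is a run of letters and not a bound site.

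In the AT1 compartment, Cxcl16 was lower in the mutant, while Cxcl15, Cx3cl1, Cxcl17, Ccl20 and the receptor Ackr3 were higher. Of 18 members with at least 20 UMIs, 10 were at least 2-fold higher in the mutant and 1 was at least 2-fold lower. The same folds were passed by 21.8% of 12769 genes upward and by 12.5% downward. The median log2 ratio was 1.38 for the members and 0.14 for all genes. The mutant class held 30916447 UMIs against 3653355, and 6 of the 18 members had no UMI in the control, so a gene could pass the minimum through the mutant alone. These counts are therefore a description and support nothing.

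Cxcl16 (chr11:70453983-70459984, minus strand, GRCm38) encodes a transmembrane chemokine that also binds oxidised lipids. It stood at 307 CPM in the control (289 to 325) and at 157 in the mutant (153 to 162), which is 1.95-fold lower (1.82 to 2.08). The clusters differed. In the mutant's AT1-like cluster it was at 280 CPM and in the Kcne2 cluster at 283, close to the 311 of the control's main AT1-like cluster. It was at 175 in the Sprr1a cluster, 139 in the cycling cluster, 104 in the Gpx2 cluster and 103 in the Tff1 cluster. Over the AT1-like clusters alone, 537 control and 174 mutant cells, Cxcl16 was at 308 and 283 CPM, a ratio of 0.92 with an interval that includes 1 (0.822 to 1.03). When every cell was cut down at random to 1500 UMIs, a Cxcl16 UMI was left in 34.8% of the control's and 21.5% of the mutant's cells of the compartment. Unthinned, the shares were 77% and 73.7%, at median depths of 6398 and 12306 UMIs per cell. In mesenchymal cells, taken as the comparison for background, the thinned shares were 2.65% and 3.42%, at median depths of 6061 and 5501.

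Cxcl17 (chr7:25400053-25412886, minus strand) encodes a mucosal chemokine that is best known from airway epithelium. It had 0 UMIs in the 540 control cells of the compartment and 1190 UMIs in 609 mutant cells, or 38.5 CPM, at least 46.9-fold higher when the control is set to the floor of 3 UMIs over the class. No control cell had a UMI of it, which allows a share of cells with a UMI of up to 0.556% and does not limit the share of cells that express the gene. The Tff1 cluster was highest at 64.9 CPM, followed by the Sprr1a cluster at 37.4 and the cycling cluster at 24.9. The Kcne2 and Gpx2 clusters were at 18.4 and 18.3, and the mutant's AT1-like cluster was lowest at 7.27. Thinned shares were 0% and 5.39% of cells (0% and 27.3% unthinned), against 0% and 0.207% in endothelial cells.

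Cx3cl1 (fractalkine, the tethered ligand of Cx3cr1) was at 8.21 CPM in the control and 34.5 in the mutant, 4.21-fold higher (2.93 to 6.27). Its order over the clusters was much like that of Cxcl17, with 43.8 CPM in the Tff1 cluster, 42.8 in the Sprr1a cluster and 10.6 in the mutant's AT1-like cluster. That last value lies near the 8.03 of the control's main AT1-like cluster. Over the AT1-like clusters alone the levels were 8.24 and 10.3 CPM, a ratio of 1.24 (0.634 to 2.36). Over the whole compartment the thinned share of cells with a UMI was 0.926% in the control and 5.25% in the mutant (5.56% and 33.3% unthinned), and in mesenchymal cells it was 0% and 0.0978%.

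Ccl20, the ligand of Ccr6, had 0 control UMIs and 371 mutant UMIs in 103 cells (12 CPM, at least 14.6-fold higher). The most in 1 cell was 24. It was spread over the cycling (20.6 CPM), Sprr1a (16.3), Kcne2 (15.6) and Gpx2 (13.5) clusters, with 5.55 in the Tff1 cluster and 1 UMI in the mutant's AT1-like cluster. Unlike Cxcl17 and Cx3cl1, its level was lowest among the unnamed clusters in the Tff1 cluster.

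Ackr3, the atypical receptor that takes up Cxcl12, had 3 UMIs in the control and 309 in 239 mutant cells, 12.2-fold higher (4.13 to 59.3). Nearly all of it lay in the Tff1 cluster (15.8 CPM), the Sprr1a cluster (14.5) and the cycling cluster (8.23 CPM), with 0.65 in the Kcne2 cluster. Its usual ligand was scarce in the same cells. Cxcl12 had 5 control and 19 mutant UMIs, the 1 member counted as lower (2.23-fold, 0.65 to 6.17), and its interval includes 1.

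**Figure D2:**
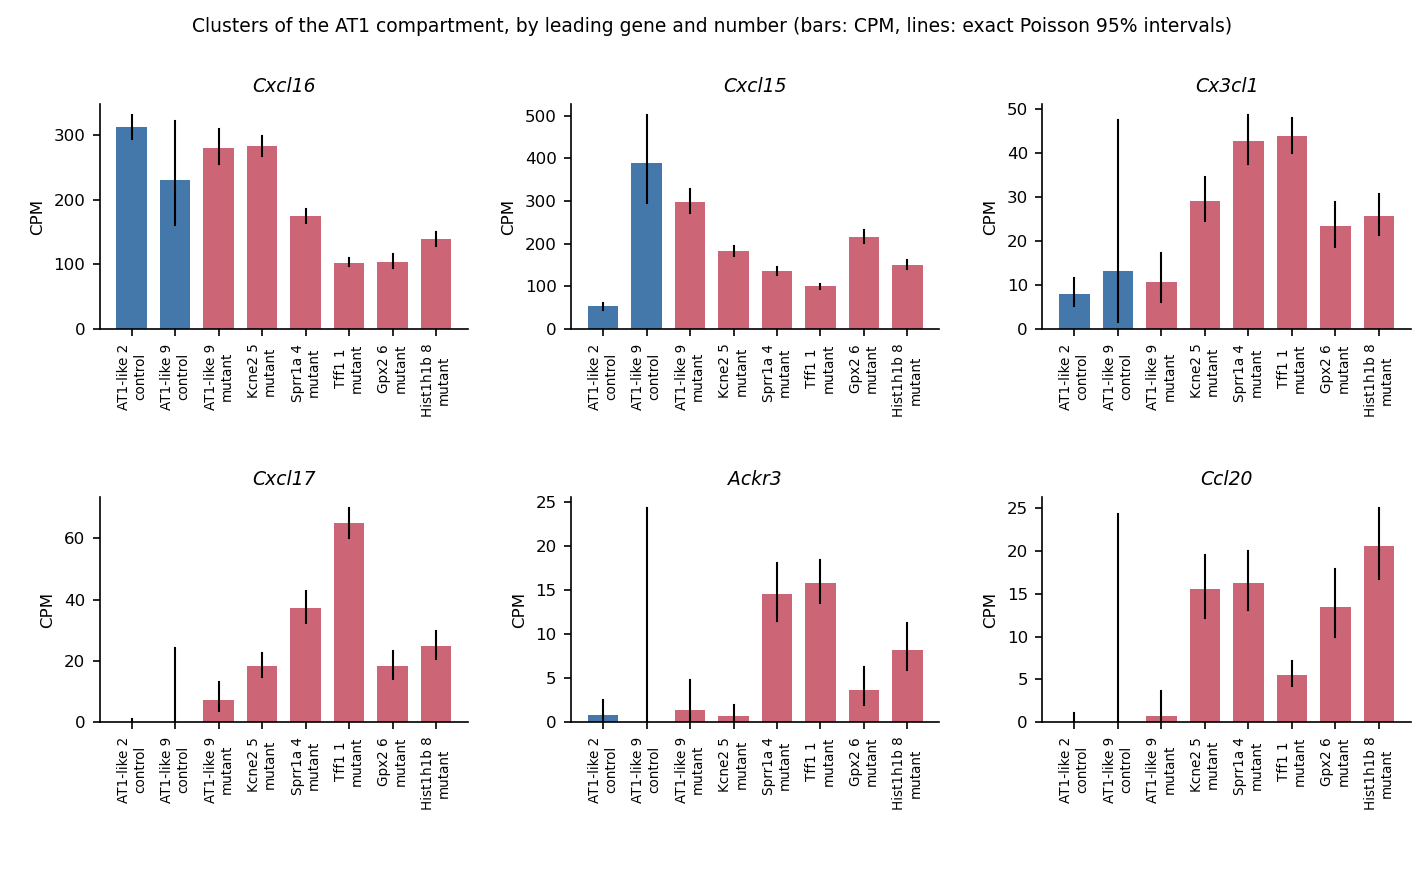
CPM of 6 members (panels) in the clusters of the AT1 compartment, with blue bars for control and red bars for mutant cells, labelled by leading gene and cluster number. Cxcl17 and Cx3cl1 are highest in the Tff1 cluster, at 64.9 and 43.8 CPM, and Cxcl16 is about as high in the mutant's AT1-like and Kcne2 clusters (280 and 283 CPM) as in the main control cluster (311 CPM).

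The neutrophil ligands of the CXC family were rare in the compartment and held by few cells. Cxcl2 had 0 control UMIs and 139 mutant UMIs in 36 cells (at least 5.48-fold higher), of which the Tff1 cluster held 98. Cxcl5 had 0 and 110 UMIs (at least 4.33-fold higher), with 96 in the Tff1 cluster and 29 in a single cell. Cxcl10, an interferon-induced ligand of Cxcr3, had 1 and 74 UMIs, an 8.74-fold ratio whose interval runs from 1.52 to 350. Of the members at least 2-fold higher, Ccl6 (2 and 44 UMIs) and Cxcr4 (1 and 29 UMIs) had intervals that include 1. Ccl25, a thymic and gut ligand of Ccr9, was at 4.93 and 9.25 CPM, and Ccl27a, a ligand of skin T cells, at 15.9 and 8.18. Near-identical copies of Ccl27a exist, so its count is uncertain. Cxcl1 (12 and 177 UMIs) and Ccl17 (13 and 67 UMIs) had intervals that include 1. Cxcl3 had 0 and 39 UMIs, at least 1.54-fold higher. Ccl28, with 0 and 22 UMIs, allows no direction at this depth.

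Cxcl15 (chr5:90794534-90803067, plus strand) needs its AT2 level beside it. Different clusters held most AT2-like cells of the 2 libraries: the control had 722, 465 and 82 cells in the clusters led by Apoe, by Sftpc and by Retnla and Lrg1, and the mutant had 12, 18 and 185. Over AT2-like cells Cxcl15 stood at 3205 CPM in the control (3170 to 3241) and at 4029 in the mutant (3933 to 4126), 1.26-fold higher (1.22 to 1.29), and 1266 of 1269 control and 215 of 215 mutant cells carried it. Nearly every AT2-like cell of both libraries thus had the transcript. Within the Retnla cluster it was at 4352 CPM in the control (4210 to 4499) and 4180 in the mutant (4076 to 4286), so the difference of the class was not seen there. In the control, Cxcl15 came to 1.31 UMIs per 100 UMIs of the surfactant gene Sftpc in AT2-like cells. It came to 1.24 in the AT1 compartment, 1.61 in endothelial, 1.65 in mesenchymal and 1.37 in immune cells. Control levels were uneven within these classes: Cxcl15 was at 53 CPM in the main control AT1-like cluster and at 389 in the 20 control cells of the smaller AT1-like cluster, and at 259 in an unnamed mesenchymal cluster led by Grp. Free RNA was estimated per class from marker genes of other lineages. The estimate was 4.94% in control and 15.1% in mutant immune cells, and 3.25% and 6.89% in mesenchymal cells. It was 3.05% and 2.79% in endothelial cells, 2.43% and 2.72% in the AT1 compartment and 1.71% in AT2-like cells of both libraries. The part of free RNA in these levels was not tested. In the mutant the ratio was 2.10 in AT2-like cells, 8.39 in the AT1 compartment, 4.79 in immune, 3.54 in mesenchymal and 1.28 in endothelial cells. The immune ratio rested on 43 Cxcl15 UMIs, 19 of them in 1 cell, and the endothelial one on 8. Airway cells had 15.5 in the control and 264 in the mutant, the latter from 169 Cxcl15 and 64 Sftpc UMIs. The Cxcl15 level of the AT1 compartment was 150 CPM against 66.8 in the control, 2.25-fold higher (1.98 to 2.57). All mutant clusters of the compartment carried it, from 100 CPM in the Tff1 cluster to 299 (272 to 328) in the smaller AT1-like one. In that same AT1-like cluster the 20 control cells were at 389 (296 to 502), so in that cluster the control was not lower. This difference turned sign when doublets were kept (log2 ratio -0.998).

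The other epithelial members were described in the same way. In AT2-like cells 2 of 8 measured members were at least 2-fold higher (7.5% of 10592 genes) and 2 were at least 2-fold lower (4.79%). Cxcl17 was at 3.99 CPM in the control and 25.5 in the mutant, 6.4-fold higher (4.05 to 10.1), in 34 of 1269 and 31 of 215 cells. Within the Retnla cluster, which held most mutant and few control AT2-like cells, Cxcl17 was at 7.42 (2.72 to 16.1) and 28.6 (20.6 to 38.6), from 6 and 42 UMIs. Cx3cl1 was at 2.56 and 7.72, 3.02-fold higher (1.42 to 6.13), and within the Retnla cluster at 3.71 and 7.48, from 3 and 11 UMIs. Over the class, both had thus the same direction as in the AT1 compartment. Cxcl16 differed little, at 36.2 and 38 CPM. Cxcl1, a neutrophil ligand that binds Cxcr2, was at 21.4 and 7.12 CPM, a ratio of 0.333 (0.17 to 0.595). The cluster led by Apoe, with 722 control and 12 mutant cells, held 189 of its 209 control UMIs. Within the Retnla cluster Cxcl1 was at 19.8 (11.3 to 32.1) and 8.16 (4.22 to 14.3), and these intervals overlap. Its 12 mutant UMIs lay in 4 cells, 6 of them in 1. Cxcl2, a close relative of Cxcl1, had 57 and 0 UMIs, at least 3.27-fold lower. Of these 57, the Apoe cluster held 49 and the Retnla cluster 8.

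Airway cells were few, and their inflammatory ligands came from a handful of control cells. Ccl20 was at 92.4 CPM in the control and 0 in the mutant (at least 18.1-fold lower). All 142 UMIs came from 8 cells, 66 of them from 1. Cxcl1 was at 137 and 0 CPM (at least 26.9-fold lower), from 10 control cells with 95 of 211 UMIs in 1. Cxcl2 was at 39 and 0 CPM. Club cells, the secretory cells of the bronchioles, held most of these: 8 of 40 control and 0 of 24 mutant club cells had Cxcl1. With 0 among 24 cells, up to 12.5% could have a UMI, which again sets no limit on expression. Cxcl17 was higher in the mutant in both airway types, at 57 and 121 CPM in club cells (2.12-fold, 1.36 to 3.28) and at 140 and 221 in ciliated cells (1.58-fold, 1.11 to 2.22). Club-cell Cxcl15 was at 685 and 442 CPM.

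In endothelial cells, 2 of 11 measured members were at least 2-fold higher (7.06% of 10356 genes) and 4 at least 2-fold lower (2.21%), with a median log2 ratio of -0.82 against 0.08 for all genes. Different clusters held most of the endothelial cells of the 2 libraries, too: 1 cluster held 1 control and 249 mutant cells, and 2 others held 169 control cells each with 13 and 4 mutant cells. Cxcl12 (chr6:117168535-117181367, plus strand), which places arterial cells and progenitors, was the highest member at 446 and 597 CPM, 1.34-fold higher (1.24 to 1.44). Arterial cells had the highest level, at 2512 CPM in the control and 3323 in the mutant, and held 859 of 1272 control and 560 of 1709 mutant UMIs. The mostly mutant cluster of 249 cells, which took no name, held 880 mutant UMIs (631 CPM). In Car4-high capillary cells, which line the gas-exchange surface beside AT1 cells, Cxcl12 was at 26.5 and 158 CPM, 5.96-fold higher (3.22 to 12.1). The 75 mutant UMIs lay in 14 of 70 cells with 26 in 1, and without the highest cell of each library the levels were 17.7 and 103. Over all endothelial cells 20.7% of control and 34% of mutant cells had a Cxcl12 UMI after thinning (29.3% and 57.6% unthinned), against 0.613% and 0% of immune cells. Median depths were 4383 and 5275 UMIs in endothelial and 4776 and 5415 in immune cells.

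Cx3cl1 went the other way in endothelium than in the AT1 compartment. It was at 21.4 and 11.2 CPM, 1.91-fold lower (1.23 to 3.03), and in Car4-high capillary cells at 83.8 and 27.4, 3.06-fold lower (1.6 to 6.27). Its highest class was thus endothelium in the control and the AT1 compartment in the mutant.

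The lymphatic ligand Ccl21a, which brings Ccr7-bearing cells into lymph vessels, was at 124 and 61.4 CPM in endothelial cells, but 3 control cells and 1 mutant cell held all of it. Without the highest cell of each library, 61.7 CPM was left in the control and 0 in the mutant. Copies of Ccl21 are near-identical, so the symbol is uncertain. Cxcl2 showed the same dependence: 53 of its 60 mutant UMIs came from 1 cell, and without the highest cells its levels were 2.1 and 2.44 CPM. Ccl25 was at 5.25 and 13.3 CPM, 2.52-fold higher (1.36 to 4.94), in 15 and 35 cells. Cxcl15 was at 40.6 and 2.79 CPM, 14.5-fold lower (7.14 to 34.5), while Sftpc in the same cells was at 2531 and 218 CPM.

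Ackr3 and Ackr2 were highest in different parts of the endothelium. Ackr3 was highest in venous cells, at 581 CPM in the control and 396 in the mutant (1.47-fold lower, 1.08 to 2.01), and over all endothelial cells it was at 110 and 97 (0.885, 0.75 to 1.04). In arterial cells it was at 81.9 and 23.7 CPM, but 12 of the 28 control UMIs came from 1 cell. Ackr2, which degrades inflammatory CC ligands, was highest in Car4-high capillary cells at 101 and 130 CPM. Over the class it was at 35 and 56.6, 1.61-fold higher (1.25 to 2.09). Ackr4, which scavenges Ccl19, Ccl21 and Ccl25, was at 11.6 and 4.89 CPM, 2.37-fold lower (1.23 to 4.78). Cxcr4, the signalling receptor for Cxcl12, was at 13.7 and 5.59 CPM in endothelium, 2.45-fold lower (1.34 to 4.69).

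In mesenchymal cells, 3 of 16 measured members were at least 2-fold higher (6.88% of 12144 genes) and 5 at least 2-fold lower (2.32%), and the median log2 ratio was -0.24 against 0.05 for all genes. The control and mutant myofibroblasts, which lay down alveolar elastin, sat in separate clusters: 278 and 1 cells, 255 and 6, 2 and 229, and 1 and 158. Over the class Cxcl12 and Cxcl13 were higher in the mutant, though not in every cluster. Cxcl12 was at 59.8 and 95.3 CPM, 1.59-fold higher (1.4 to 1.81). By type it was at 242 and 358 CPM in adventitial fibroblasts and at 58.6 and 131 in Tcf21 alveolar fibroblasts (2.24-fold, 1.59 to 3.21). The unnamed Grp cluster (55 control and 89 mutant cells), which held 204 of 423 control and 245 of 579 mutant UMIs, went the other way, at 593 (514 to 680) and 468 (411 to 531). Cxcl13, the B-cell ligand of Cxcr5, was at 10.7 and 34.6 CPM, 3.22-fold higher (2.46 to 4.24). The Grp cluster was at 63.9 and 180 CPM and held 94 of 210 mutant UMIs. Tcf21 alveolar fibroblasts held 96 and were at 5.45 and 74.6 CPM, where 44 of 96 mutant UMIs came from 1 cell and the levels without the highest cells were 4.09 and 40.4. In pericytes, the wall cells of capillaries, Cxcl13 was lower, at 79.5 and 38.2 CPM.

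Ccl11 (eotaxin, the eosinophil ligand of Ccr3) differed between the fibroblast types. Control Tcf21 alveolar fibroblasts had 0 UMIs in 132 cells, and mutant ones had 83 UMIs in 35 of 218 cells, or 64.5 CPM, at least 15.8-fold higher. Adventitial fibroblasts carried it in both libraries, at 86.9 and 67.6 CPM. Cxcl14, a ligand of resting stroma and epithelium, was at 41.9 and 43.3 CPM over the class but lower in 2 types, at 213 and 117 in pericytes and at 209 and 87.9 in adventitial fibroblasts. Tcf21 alveolar fibroblasts were at 131 and 120. Ccl25 was at 8.63 and 19.1 CPM, 2.21-fold higher (1.61 to 3.07), in 58 and 105 cells with at most 2 UMIs each. Ccl6, with 10 and 18 UMIs, was the third member at least 2-fold higher, and its interval includes 1 (0.917 to 5.08).

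Cxcl1, Cxcl10, Ccl2, Ccl19 and Cxcl15 were at least 2-fold lower in mutant mesenchymal cells. Cxcl1 was at 46.4 and 3.95 CPM, 11.7-fold lower (7.75 to 18.6), in 81 of 1094 control and 10 of 1023 mutant cells. Its highest control levels were in 2 unnamed clusters, at 256 CPM in the Grp cluster and 261 in 1 led by Wisp2. Pericytes were at 94 and 0 CPM (at least 15.6-fold lower) and myofibroblasts at 25.5 and 4.07. Cxcl10 was at 10.7 and 0.823 CPM, but 47 of 76 control UMIs came from 1 cell. Ccl2, the monocyte ligand of Ccr2, had 24 and 3 UMIs (6.87-fold lower, 2.09 to 35.7), and Ccl19, a ligand of Ccr7, had 23 and 2 UMIs. Cxcl15, at 36.6 and 11.7 CPM, was the other member at least 2-fold lower, beside Sftpc at 2221 and 330 CPM in the same cells. Of the receptors, Cxcr4 marked pericytes, with UMIs in 62 of 138 control and 19 of 92 mutant cells and levels of 145 and 58.3 CPM (2.48-fold lower, 1.6 to 3.94). Ackr3 was at 19.4 and 10.2 CPM over the class, 1.90-fold lower (1.4 to 2.61).

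**Figure D3:**
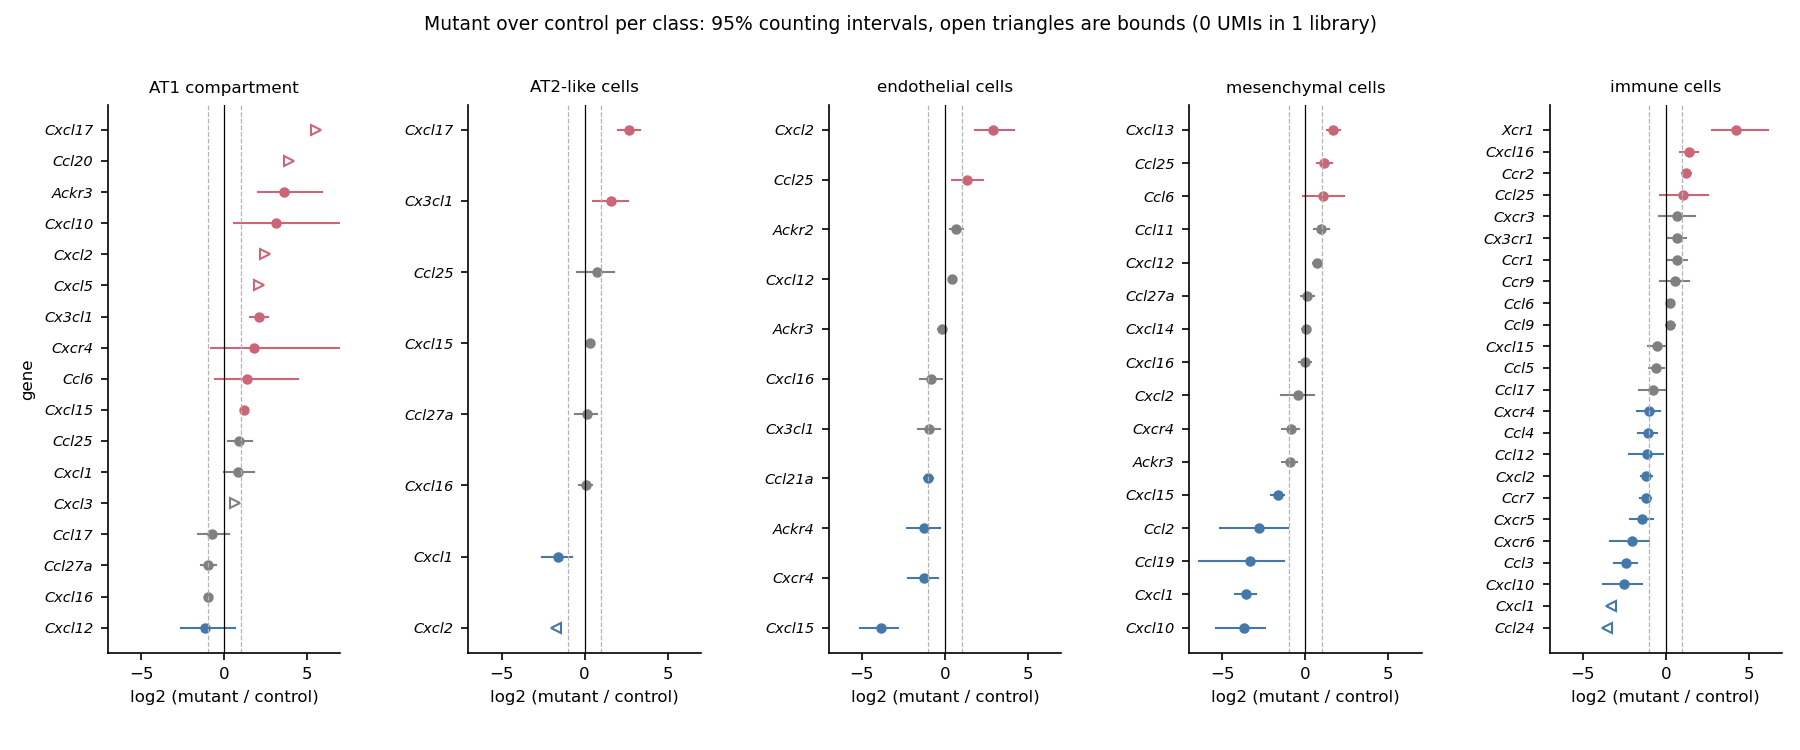
Log2 ratio of mutant to control for the measured members in 5 classes (1 receptor is not drawn), with 95% counting intervals as lines, open triangles for bounds where 1 library had 0 UMIs, and dashed lines at a 2-fold difference. Cxcl17, Ccl20 and Ackr3 lie furthest to the right in the AT1 compartment, and Cxcl1, Cxcl10 and Cxcl2 lie on the left in the immune panel.

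In immune cells, 5 of 25 measured members were at least 2-fold higher in the mutant (9.25% of 8497 genes) and 11 at least 2-fold lower (5.91%). The median log2 ratio was -0.57 against 0.11 for all genes. The mix of cells differed: the libraries held 139 and 30 B cells, 85 and 21 T cells, 38 and 46 alveolar macrophages, 20 and 40 interstitial macrophages and 44 and 34 monocytes. The interstitial macrophage cluster also carried dendritic genes such as Flt3, Mgl2 and Cd209d. Values by type are therefore given beside each class value. The estimated share of free RNA was 4.94% in control and 15.1% in mutant immune cells, and its part in these values was not tested.

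Cxcl2, a neutrophil ligand, was far lower in the mutant in alveolar macrophages, the phagocytes of the air space. It was at 1567 CPM in the control (1396 to 1752) and at 40 in the mutant (19.2 to 73.5), 39.2-fold lower (21 to 82.5), with UMIs in 27 of 38 and 6 of 46 cells. Thinned shares were 55.3% and 4.35%, against 1.18% and 0% of T cells, at median depths of 4917 and 5138 UMIs in the macrophages and 4867 and 6409 in T cells. UMIs thus lay in most of the control cells and in few of the mutant ones. In interstitial macrophages Cxcl2 was the other way, at 177 and 296 CPM (1.67-fold higher, 1.11 to 2.55), from 3 control and 7 mutant cells. Monocytes were at 105 and 0 CPM, and the class at 212 and 93.9.

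Cxcl1, Cxcl10 and Ccl3 were lower in macrophages too. Cxcl1 was at 235 and 0 CPM in alveolar macrophages (at least 19.6-fold lower), from 12 control cells. Cxcl10 was at 209 and 12 CPM there and at 183 and 16.6 in interstitial macrophages. Over the class it was 5.62-fold lower (2.71 to 13.5). In interstitial macrophages 1 control cell held 16 of 35 Cxcl10 UMIs, and 1 mutant cell held all 5. Ccl3, which attracts cells with Ccr1, was at 96.6 and 18.6 CPM over the class, 5.2-fold lower (3.27 to 8.71). It was lower in alveolar macrophages (250 and 28 CPM), interstitial macrophages (235 and 13.3) and monocytes (150 and 9.9). The control UMIs of these 3 types lay in 8, 3 and 8 cells, with 20 of 49, 29 of 45 and 20 of 40 in 1 cell. Without the highest cell of each library, Ccl3 was at 148 and 20, at 83.5 and 3.32, and at 74.8 and 0 CPM. In T cells Ccl3 was at 89.1 and 47.5, where the interval of the ratio includes 1. Ccl4, which shares receptors with Ccl3, was at 66.2 and 31.6 CPM over the class.

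Genes that are known to be induced within minutes of handling or stimulation were lower in sum in the mutant in all 6 classes. The summed level of 14 immediate early and stress genes, picked after values were seen, was 6078 and 1575 CPM in alveolar macrophages, 9753 and 3030 in monocytes, 6067 and 2309 in interstitial macrophages, 6411 and 1412 in club cells, 2821 and 1103 in pericytes and 5112 and 1754 in AT2-like cells. All 14 were higher in the control in the AT2-like, airway, endothelial, mesenchymal and immune classes, and 9 of 14 were in the AT1 compartment. Nfkbia, an NF-kB target that feeds back on the pathway, was at 1010 and 188 CPM in alveolar macrophages. The part of these genes in the differences of Cxcl1, Cxcl2, Cxcl10, Ccl3 and Ccl20 was not tested. Interstitial macrophages held both a lower sum of these genes and a higher Cxcl2 in the mutant. That Cxcl2 came from 3 control and 7 mutant cells, and the highest cell of each library held 23 of 34 and 35 of 89 UMIs. In the AT1 compartment the sum was 4500 and 2472 CPM, while Cxcl2, Cxcl10 and Ccl20 were higher in the mutant. Different clusters held most of that compartment in control and mutant, so like cells were not compared. These values are a description and do not test the part of the early genes.

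**Figure D4:**
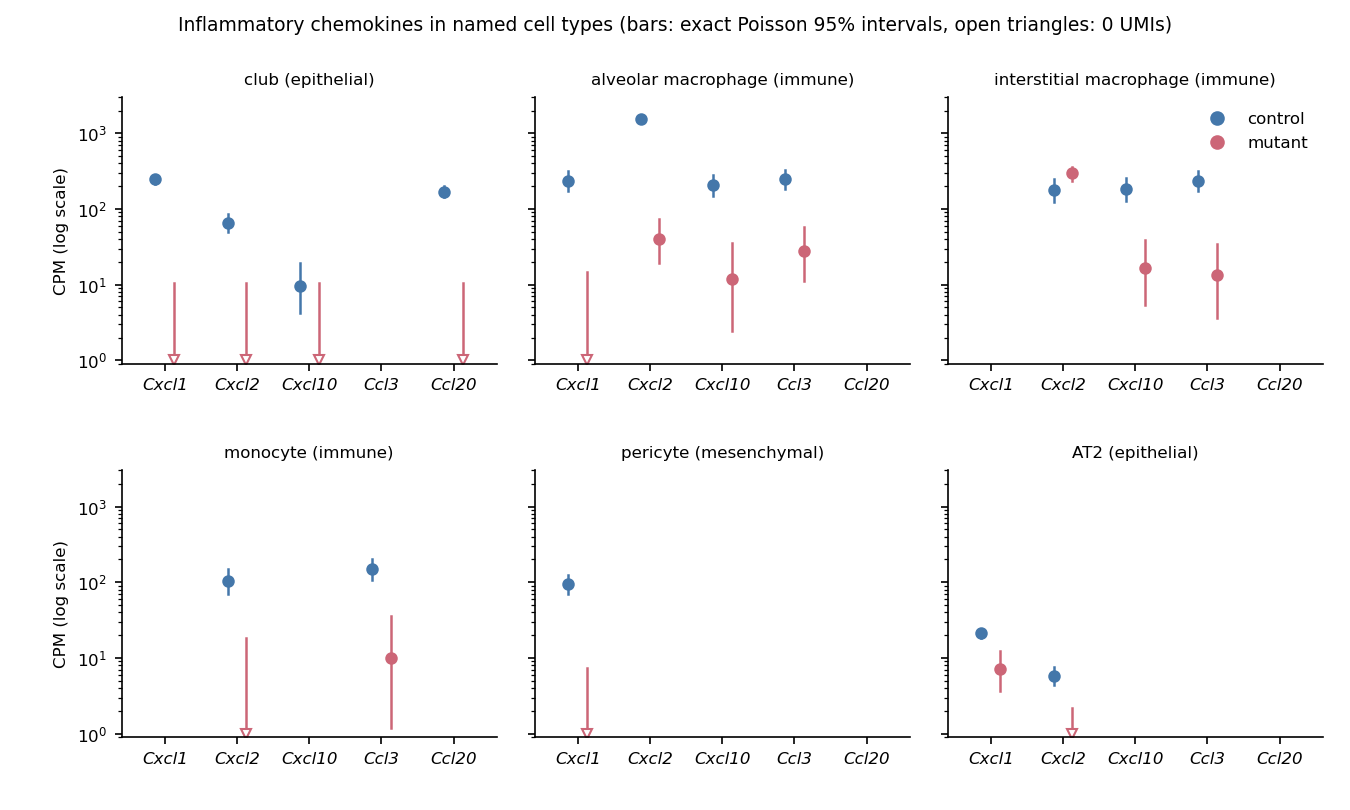
CPM on a logarithmic axis of 5 inflammatory ligands in 6 named cell types, with exact Poisson 95% intervals, control in blue, mutant in red and open triangles at 0 UMIs. Genes with fewer than 5 UMIs over both libraries in a type are not drawn. Cxcl2 stands at 1567 and 40 CPM in alveolar macrophages and at 177 and 296 in interstitial macrophages.

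Other macrophage ligands differed between the class and its types. Ccl6 (chr11:83587882-83593087, minus strand) was at 680 and 826 CPM over the class, 1.22-fold higher (1.11 to 1.33), yet it was not higher within its main types. It was at 4328 and 2607 CPM in alveolar macrophages (1.66-fold lower, 1.5 to 1.84). In monocytes it was at 1122 (999 to 1256) and 941 (812 to 1084), and these intervals overlap. In interstitial macrophages Ccl6 was at 480 and 113, with UMIs in 15 cells of each library and 33 of 92 control UMIs in 1 cell. Alveolar macrophages, its highest type, were 38 of 326 control and 46 of 171 mutant immune cells, and with the 5 named types weighted alike the log2 ratio over the class was -0.67. Ccl9 was at 166 and 200 CPM over the class, with monocytes at 606 and 693, alveolar macrophages at 281 and 136 and interstitial macrophages at 402 and 126. Cxcl16 was at 26.6 and 68.8 CPM over the class, 2.59-fold higher (1.78 to 3.79), but at 203 and 216 within interstitial macrophages.

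Several ligands of the class rested on single cells. Ccl24 had 60 control UMIs with 57 in 1 cell, and 0 mutant UMIs. Ccl12 had 45 control UMIs with 40 in 1 cell, and Ccl17 had 53 in control interstitial macrophages with 42 in 1. Ccl5, a ligand of effector T and NK cells, was at 263 and 380 CPM in T cells, with 52 of 56 mutant UMIs in 1 cell, and Ccl4 in T cells was at 170 and 143 with all 21 mutant UMIs in 1 cell. No direction is drawn for these 5.

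Receptors of myeloid cells come first. Ccr2 (chr9:124101950-124113557, plus strand), through which monocytes leave the marrow and enter tissue, was at 118 and 279 CPM over the class, 2.36-fold higher (1.97 to 2.82). Within monocytes it was at 430 and 817 (1.90-fold, 1.49 to 2.43), in 25 of 44 and 32 of 34 cells. In interstitial macrophages it was at 292 and 372, where the interval of the ratio includes 1 (0.916 to 1.79). The difference was thus also seen within a named type, and with types weighted alike the log2 ratio was 0.64 against 1.24. Cx3cr1, the fractalkine receptor of patrolling monocytes and macrophages, was at 35.3 and 55.8 CPM over the class but at 138 and 129 in monocytes and 78.2 and 76.4 in interstitial macrophages. The annotated span of Cx3cr1 overlaps other genes on its strand. Ccr1 was at 27.1 and 42.8 CPM, and at 117 and 68 in alveolar macrophages.

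Ccr7, Cxcr5 and Cxcr6 were lower over the class, where B and T cells were fewer in the mutant. Ccr7, which leads B and T cells and mature dendritic cells to lymph vessels, was at 212 and 91.1 CPM. It was at 310 and 353 in T cells, a ratio of 1.14 (0.815 to 1.57), and at 330 and 103 in B cells, 3.22-fold lower (1.99 to 5.53), in 82 of 139 and 12 of 30 cells. In interstitial macrophages 1 mutant cell held all 27 Ccr7 UMIs. Cxcr5, the follicle receptor of B cells, was at 58.6 and 21.4 CPM over the class but at 149 and 120 within B cells. Cxcr6, the receptor for Cxcl16 on resident T cells, was found only in T cells among the named types with at least 5 UMIs, at 115 and 54.3 CPM, from 8 and 3 cells. Ccr9, a gut-homing receptor, was at 48.6 and 81.4 CPM in T cells, and Cxcr3, an effector T-cell receptor, at 9.23 and 14.9 over the class. Cxcr4 was at 46.7 and 23.2 CPM over the class, with monocytes at 97.2 and 14.9 (6.55-fold lower, 2.01 to 33.8).

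Xcr1 (chr9:123852315-123862029, minus strand), which marks cross-presenting dendritic cells, was at 2.17 and 40.9 CPM, 18.8-fold higher (6.86 to 72.2). All of the immune Xcr1 lay in the interstitial macrophage cluster, with 4 UMIs in 3 control cells and 44 UMIs in 12 of 40 mutant cells. Its ligand gene Xcl1 had 14 UMIs in all cells used.

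**Figure D5:**
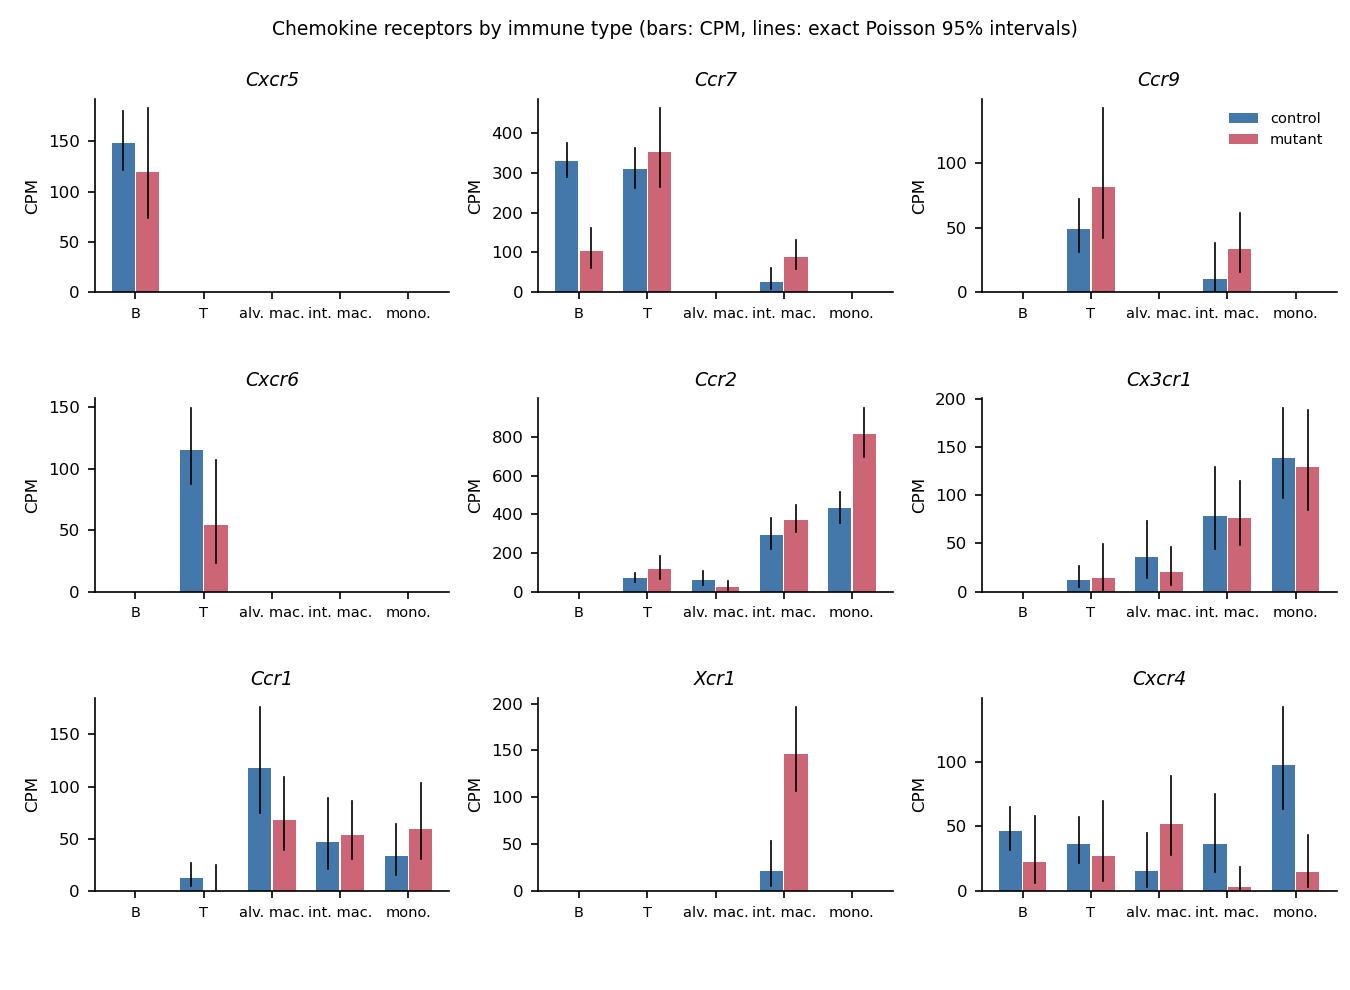
CPM of 9 chemokine receptors (panels) in 5 immune types, control in blue and mutant in red, with exact Poisson 95% intervals as lines. Genes with fewer than 5 UMIs in a type are not drawn. Ccr2 in monocytes stands at 430 and 817 CPM, Ccr7 in B cells at 330 and 103, and Xcr1 has bars in interstitial macrophages only.

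Ligands and their receptors were set side by side for 21 pairs of which both sides had at least 20 UMIs. Cxcr6 in immune cells (30.9 and 7.44 CPM) and Cxcl16 in its highest class, the AT1 compartment (307 and 157), were both lower in the mutant. The Cxcr6 UMIs of T cells came from 8 and 3 cells. Over the AT1-like clusters alone Cxcl16 was at 308 and 283 CPM. For Cxcr4 and Cxcl12 the receptor in immune cells was at 46.7 and 23.2 while the ligand in endothelium was at 446 and 597. Over the classes, Cxcr5 and Cxcl13 were likewise opposed. The receptor was at 58.6 and 21.4 in immune cells and the ligand at 10.7 and 34.6 in the mesenchyme. B cells, however, were 139 of 326 control and 30 of 171 mutant immune cells, and within them Cxcr5 was at 149 and 120 CPM. For Ccr9 and Ccl25 the receptor was at 14.1 and 20.4 CPM in immune cells, and the ligand was higher in the mesenchyme, at 8.63 and 19.1. In T cells Ccr9 had 24 and 12 UMIs, from 10 and 4 cells. Without the highest cell of each library its T-cell levels were 36.5 and 33.9 CPM, so no direction is drawn for Ccr9. Ccr2 was higher in the mutant. Its ligand Ccl2 was at 4.89 and 1.86 CPM in immune cells, from fewer than 20 UMIs, so no direction is drawn for it. Ccl12 was at 24.4 and 11.2 CPM, or at 2.71 and 5.58 without the highest cell of each library. All values of these pairs compare the same 2 libraries.

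Genes around the chemokine system were counted in 5 lists. The shares of all genes to read them against, at least 2-fold higher and lower, were 21.8% and 12.5% in the AT1 compartment, 7.5% and 4.79% in AT2-like cells, 7.06% and 2.21% in endothelium, 6.88% and 2.32% in the mesenchyme and 9.25% and 5.91% in immune cells. In the list of 20 other chemotactic ligands and receptors, 2 of 11 measured genes were at least 2-fold higher in the AT1 compartment and 6 at least 2-fold lower, with a median log2 ratio of -1.64 against 0.14 for all genes. Ccrl2, a chemerin-binding receptor, was at 10.4 and 1.52 CPM there. The same list gave 0 higher and 2 lower of 9 in AT2-like cells, 0 and 1 of 8 in endothelium, 0 and 1 of 10 in the mesenchyme, and 1 and 0 of 13 in immune cells. Of 30 genes of chemokine receptor signalling, 5 of 18 were higher and 5 lower in the AT1 compartment, 1 and 0 of 13 in AT2-like cells, 0 and 0 of 15 in endothelium, 0 and 1 of 17 in the mesenchyme and 1 and 1 of 29 in immune cells. Gnai2, the G-protein subunit that most chemokine receptors couple to, was at 599 and 745 CPM in immune cells.

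Of 20 NF-kB pathway and feedback genes, 4 of 19 were at least 2-fold lower in immune cells and 0 higher, with a median log2 ratio of -0.42, against 5.91% and 9.25% of all genes and a median of 0.11. Tnf was at 90.1 and 6.51 CPM and Nfkb2 at 27.7 and 7.44 in that class. In AT2-like cells 1 was higher and 3 lower of 17, with Nfkbia at 183 and 62.9 CPM and Nfkbiz at 61.8 and 24.9. The AT1 compartment had 3 higher and 2 lower of 18, endothelium 1 and 0 of 18, and the mesenchyme 0 and 1 of 20. Nfkbiz was at 6.3 and 67.9 CPM in the AT1 compartment, the reverse of AT2-like cells, and Icam1, an adhesion molecule, was at 861 and 152. Of 26 cytokines and receptors that induce chemokines, 4 of 15 were higher in the AT1 compartment and 0 lower. Il33, an alarmin, had 1 and 2648 UMIs there, and Il1rn, the interleukin 1 antagonist, had 0 and 528 UMIs, at least 20.8-fold higher. That list gave 1 and 0 of 13 in AT2-like cells, 2 and 0 of 12 in endothelium, 4 and 0 of 15 in the mesenchyme and 0 and 2 of 14 in immune cells. Of 18 glycan and scavenger genes that hold chemokines, 6 were higher and 5 lower of 15 in the AT1 compartment, where Hs2st1, a heparan sulfate sulfotransferase, was at 440 and 78.9 CPM and Hs3st1 at 1.09 and 42.7. The other classes had 0 and 0 of 13 (AT2-like), 0 and 0 of 12 (endothelium), 1 and 2 of 14 (mesenchyme) and 2 and 0 of 10 (immune).

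The remaining members were at the limit of the depth. Those with no UMI in any barcode were Cxcr1, Ccl26, Ccr8, Ccr1l1, 1 entry of Ccl21b, both entries of Ccl21c, Ccl27b, and extra copies of Ccl27a, Ccl19 and Ccl21a. Between 0 and 14 UMIs in the cells used were found for Cxcr2, Xcl1, Ackr1, Cxcl9, Ccl22, Ccr4, Ccr3, Ccl7, Ccl8, Ccl1, Ccr10, Ccr6 and 1 entry of Ccl21b. Ccr6, the receptor of Ccl20, had 10 UMIs, and Ccr3, the receptor of Ccl11, had 1. At these counts no level or difference is given. By position, 14 of the 23 receptors lie on chromosome 9 and 12 of the ligand entries on chromosome 11. Cxcl1 (chr5:90891241-90893115), Cxcl2 (chr5:90903871-90905938) and Cxcl15 are neighbours on chromosome 5. The highest class of Cxcl15 was AT2-like cells in both libraries, and that of Cxcl2 was immune cells in both. For Cxcl1 it was airway cells in the control, with 95 of 211 UMIs in 1 cell, and AT2-like cells in the mutant. That mutant level came from 12 UMIs in 4 of 215 cells, 6 of them in 1. Without that cell it was 3.56 CPM, so no shift of class is drawn for Cxcl1.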

How the data were processed

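The members and the gene lists were chosen with earlier results of these data known. The deposited matrices hold UMI counts per gene and cell, per the file contents. The submitters' processing notes list Cell Ranger, Seurat and mm10 with no version or setting. Raw counts as deposited were used. Barcodes with under 500 genes or over 10% mitochondrial counts were left out (320 control and 133 mutant). Doublets were scored on simulated doublets (scanpy 1.11.5), with the expected rate rising with the number of cells, and 139 and 148 were removed. Cells were clustered over both libraries together, without the members in the naming (2000 variable genes, 30 components, 20 neighbours, Leiden resolution 1), first by lineage and then within it. A cluster took a type name from its fixed markers (mean log2 fold of at least 1, at least 3 detected), and clusters with markers of several types were left out as mixed (48 and 84 cells). These naming limits, and how doublets were called, were set after seeing the data.

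UMIs were summed per library and class and scaled to CPM of the class total. Members with at least 20 UMIs over both libraries in a class were called measured, and a 2-fold ratio was the call. Where 1 library had no UMI, the floor was 3 UMIs over the class. Values are named for members with at least 20 UMIs and 50 CPM in the higher library of a class or type, for pairs of ligand and receptor, and, chosen after values were seen, for others that the counts refer to. Intervals were computed with scipy 1.17.1 and checked on simulated counts. For shares, each cell was thinned to 1500 UMIs, which left no cell out. Nearby copies of Ccl19, Ccl21a and Ccl27a may share reads. Coordinates come from GENCODE M21 (GRCm38), promoters from RefSeq (GRCm38.p6), of which 46 of 61 symbols had a window. Depth and numbers of cells limit what is detectable, and UMIs of 1 cell are not independent of each other. The values of 1 receptor and of 1 gene of the signalling list are not reported here, and the counts include both. The alternatives are given in the closing section. Leaving out each member's highest cell, keeping mixed clusters, and weighting immune types alike were added after seeing the data.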

Additional observations from a re-analysis of the deposited data

Results flagged for a closer look

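For 3 ligands the classes differed in direction, with counting intervals of the ratio on opposite sides of 1. The differences between classes were not tested, and each class compares the same 2 libraries. Cxcl15 had a log2 ratio of mutant to control of 1.17 in the AT1 compartment, -3.86 in endothelial cells and -1.65 in mesenchymal cells, the last 2 beside a lower Sftpc. Cxcl10 was at 3.13 in the AT1 compartment, from 1 control and 74 mutant UMIs, and at -3.71 in mesenchymal and -2.49 in immune cells. Cxcl2 was at 2.45 in the AT1 compartment and 2.90 in endothelial cells, where 1 mutant cell held 53 of 60 UMIs, and at -1.71 in AT2-like and -1.17 in immune cells.

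Members were also found in barcodes that the comparisons leave out. Cxcr2, the neutrophil receptor for Cxcl1 and Cxcl2, had 25 UMIs in 20 control cells and 23 UMIs in 20 mutant cells of a mixed cluster, against 3 and 10 UMIs in the cells used. Of those 40 cells, 100% had S100a8 and 60% had Epcam. Ccl21a had 469 UMIs in control barcodes scored as doublets, from 2 cells, or 43.3% of all its UMIs.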

How the results depend on the processing

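Of 134 recounts of members at least 2-fold higher or lower under other settings, 113 stayed within 1.5 times the count given in the text and 21 did not. With a minimum of 5 UMIs the count was 5 lower in the AT1 compartment, 6 higher in mesenchymal cells and 8 higher in immune cells. With at least 50 UMIs it was 0 lower in the AT1 compartment, 1 higher in AT2-like cells, 3 lower in mesenchymal cells and 2 higher in immune cells. Over all epithelial cells in place of the AT1 compartment, 6 were higher and 3 lower. The count of 1 lower in the AT1 compartment became 3 on a scale set by the median ratio of all genes (Ccl27a and Cxcl16 were added), 2 with each library clustered alone, and 0 with free RNA subtracted, at resolution 0.6, with clustering without the members, without each member's highest cell, and with mixed clusters kept. Clustered alone, no control cluster took the AT2 name, so AT2-like counts were 0 higher and 0 lower. Without the highest cells 1 member was higher in endothelial cells (Cxcl2 was lost). At resolution 0.6, 7 were lower in immune cells, and with immune types weighted alike 2 were higher (Ccr2 and Cxcl16 were among those lost).

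Log2 ratios of single members were recomputed only for those over a whole class with at least 50 CPM in the higher library. In the AT1 compartment these were Cxcl15 and Cxcl16. The ratios of Cxcl17, Cx3cl1, Ccl20 and Ackr3 there, and all ratios within a named type or cluster, were not recomputed. Of 274 such recomputed log2 ratios, 226 stayed, 39 moved by more than counting error and 9 turned sign. Cxcl15 in the AT1 compartment was -0.998 with doublets kept and -3.97 with each library clustered alone, where Cxcl16 was 0.53. In immune cells with types weighted alike, Cx3cr1 was -0.016, Ccl5 0.43, Ccl9 -0.43 and Ccl6 -0.67. Ccl9 was -0.077 with mixed clusters kept, and Ccl6 was -1.43 with each library clustered alone. In some of these settings the cells compared had changed. Clustered alone, the control held 1818 cells in the AT1 compartment and 0 AT2-like cells, against 540 and 1269 in the text. The mutant then held 130 immune cells, against 171. With doublets kept, the control held 617 cells in the AT1 compartment and 1227 AT2-like cells. The part of these changes in each ratio was not tested. No paired analysis was possible because each genotype has 1 library.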
